A study of Mus musculus with 23 samples.

Results

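Solute carrier (SLC) genes encode membrane proteins that move amino acids, sugars, nucleotides, vitamins, metal ions and other small solutes across the plasma membrane or the membranes of organelles. The members described here are mouse genes whose symbol begins with Slc and a number, that are named alone by at least 1 probe set, and that do not belong to the Slc2a or Slc16a families. Where several probe sets name a gene, the one of highest mean was taken, and a gene was kept where its signal was above 100 on 3 or more of the 23 arrays. This gave 188 members of the 322 such genes on the array and of 18194 genes named alone by a probe set. The 25 Slc2a and Slc16a genes were left out, and 134 genes lay below the minimum, 128 of them never above 100. The genes just inside the minimum were Slc6a19, Slc25a35 and Slc19a3, whose third-highest arrays read 101.1, 105 and 105, and those just outside were Slc24a4, Slc25a27 and Slc34a3 at 99.0, 97.0 and 92.4. The symbol rule also takes in 4 genes that are not transporters by symbol, among them Slc9a3r1, a scaffold protein that binds sodium-hydrogen exchangers, and Slc7a6os, a gene that lies opposite Slc7a6.

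The arrays profiled epiblast-like cells (EpiLCs), a cultured counterpart of the early post-implantation epiblast, made from male C57BL/6 mouse embryonic stem cells that all carried the BV reporter transgenes. EpiLCs were induced with Activin A, bFGF and serum replacement, and then grown as floating aggregates in medium with LIF. The KO line (Wnt3-/-) was grown with BMP4, under titles of WNT3A or of BMP4+WNT3A, or with no cytokine, and the WT line (Wnt3+/+) with BMP4, WNT3A or no cytokine, at 500 ng/ml BMP4 and 50 ng/ml WNT3A. Aggregates were collected at 12, 24 and 36 h, and both lines were also sampled at 0 h. Each genotype, condition and time has 1 array and each genotype is 1 line, so the 3 times stand in for replicates and nothing here separates an effect of Wnt3 from another difference between the 2 lines.

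SLC families differ in what they carry and where they sit. SLC7 proteins exchange amino acids at the cell surface, several of them paired with the heavy chain Slc3a2. SLC39 proteins bring zinc, manganese and iron into the cytosol while SLC30 proteins move zinc out of it. SLC25 proteins carry nucleotides, metabolites and cofactors across the inner mitochondrial membrane. SLC35 proteins carry nucleotide sugars into the Golgi apparatus and endoplasmic reticulum, although several SLC35 members have no known substrate. By family, the members comprised 36 mitochondrial carriers, 36 carriers of amino acids and amines, 25 of metal ions, 20 of the SLC35 family, 17 of ions that set pH and cell volume, 13 of sugars and sugar phosphates and 11 of vitamins, choline and heme, with 30 in the remaining 5 classes.

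Promoter sequences are shown for members that stood out in the cytokine comparisons below, 2 that fell (Slc35d3 and Slc27a2) and 2 that rose (Slc25a14 and Slc38a5). Each run holds the 250 bases before a RefSeq start site in the GRCm38.p6 assembly, written 5′ to 3′ on the gene's strand. Slc35d3 lies on the minus strand with this window at chr10:19851460-19851709, and Slc27a2 on the plus strand at chr2:126552774-126553023. Slc25a14 lies on the plus strand at chrX:48623198-48623447, the most upstream of its 3 listed starts, and Slc38a5 on the plus strand at chrX:8271131-8271380. Capitals mark CTTTGA, the core read by TCF/LEF factors that act in WNT signalling, and GGCGCC, a GC-rich sequence read by SMAD factors of the BMP pathway, each searched on both strands.
Slc35d3: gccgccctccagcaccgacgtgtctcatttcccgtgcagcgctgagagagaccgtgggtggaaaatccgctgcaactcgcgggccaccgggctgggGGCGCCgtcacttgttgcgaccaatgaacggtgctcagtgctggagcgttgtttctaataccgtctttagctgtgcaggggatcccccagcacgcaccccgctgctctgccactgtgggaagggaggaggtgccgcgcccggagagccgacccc
Slc27a2: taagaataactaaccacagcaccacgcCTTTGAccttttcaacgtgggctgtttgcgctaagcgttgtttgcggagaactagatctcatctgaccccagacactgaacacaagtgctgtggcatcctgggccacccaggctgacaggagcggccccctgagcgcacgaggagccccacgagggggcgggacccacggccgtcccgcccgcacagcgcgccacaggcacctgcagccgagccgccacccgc
Slc25a14: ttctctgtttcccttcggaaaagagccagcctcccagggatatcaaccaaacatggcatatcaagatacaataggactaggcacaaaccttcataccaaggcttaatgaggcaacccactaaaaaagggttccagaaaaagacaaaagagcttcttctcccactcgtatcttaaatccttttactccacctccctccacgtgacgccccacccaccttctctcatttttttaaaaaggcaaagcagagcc
Slc38a5: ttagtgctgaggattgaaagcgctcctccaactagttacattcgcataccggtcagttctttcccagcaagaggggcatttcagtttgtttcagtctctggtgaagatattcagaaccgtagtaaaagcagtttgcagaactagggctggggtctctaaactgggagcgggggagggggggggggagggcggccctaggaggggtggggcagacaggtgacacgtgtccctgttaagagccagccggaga
Slc27a2 held 1 match to CTTTGA and Slc35d3 held 1 to GGCGCC, while the windows of Slc25a14 and Slc38a5 held neither. Among 32851 RefSeq promoter windows of the same length, 13.8% held CTTTGA and 9.59% held GGCGCC, so these matches are a description of the letters and of nothing more. Slc7a3 and Slc39a14 are named without a sequence.

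Some facts about the arrays touch every result. Wnt3 read 11.2 to 27.9 on all KO arrays and 10.4 to 146 on WT arrays, passing 100 only with BMP4 at 24 h and 36 h in WT. For 6 KO arrays the title and the array name in the description disagree on the cytokine at each of the 3 times, with BMP4+WNT3A and WNT3A exchanged, and these groups are called by their titles. Id1, a known target of BMP signalling, read 5480, 7591 and 9345 on the KO arrays titled WNT3A and 186, 256 and 1323 on those titled BMP4+WNT3A at 12, 24 and 36 h, against 145 to 224 on KO arrays with no cytokine. The arrays whose names include BMP4, and not those whose titles do, were thus the ones with high Id1, and a direction drawn from either titled group must be read with that conflict. All 5 EpiLC markers were detected, with a summed signal of 26294 in KO and 26232 in WT at 0 h. Sums of marker signals here and below follow the brightest probe sets of a list most, for EpiLC markers Pou5f1 and Dnmt3b. The ratio of 3′ to 5′ Gapdh signal, a sign of RNA quality, was 1.09 to 1.71 except on KO with no cytokine at 24 h (2.68), WT with WNT3A at 24 h (4.03) and WT with no cytokine at 36 h (2.30). Array medians lay between 36.8 and 41.4.

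Levels of the members were broad. Mean signals ran between 60.8 and 12107 with a median of 335, and 146 members were above 100 on every array. The other 42 passed the minimum on 3 to 22 arrays, so some of them entered through the conditions or times in which they were high. Signals of different probe sets are on no common scale, so no gene is ranked against another here. The mitochondrial phosphate carrier Slc25a3 hardly moved, at 10809 to 12855 over the 23 arrays. The median range of a member over the 21 arrays of 12 to 36 h was 0.83 on the log2 scale, beside 0.82 for all genes tested, and 9.57% of members ranged over more than 2 log2 units, beside 7.33% of all genes. Across the members, then, spread was close to that of the other genes, and the results turn on a small number of them.

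BMP4 in WT cells lowered 9 members and raised 3, the largest effect being on Slc35d3, an SLC35 protein without a settled substrate that mice need for platelet dense granules. Slc35d3 read 48.8, 28.1 and 29.4 with BMP4 at 12, 24 and 36 h, against 600.5, 388 and 134 with no cytokine. Every BMP4 array was below every untreated one, and the untreated signal itself declined with time. The difference was -2.75 ± 0.38 (SE) in log2(signal + 16), adjusted p = 0.000816 in limma over all genes. Slc35d3 was above 100 on 11 of the 23 arrays, none of them with a cytokine in WT, and its BMP4 signals at 24 h and 36 h lay below the array medians. The size therefore depends on the offset and was -2.004 when 64 was added in place of 16. Differences below are on that scale, treated minus untreated, with ± for the SE of a fit over 21 arrays. The fit takes time as a block and leaves 12 residual degrees of freedom. A p thus rests on the spread left after condition and time are taken out, and not on spread between cultures. In these bulk samples fewer cells of a type and less RNA per cell cannot be told apart.

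The cationic amino acid transporter Slc7a3, which imports arginine and lysine, read 1938, 1746 and 809 with BMP4 in WT, against 6166, 4390 and 3692 with no cytokine. Its groups did not overlap, and it fell by 1.70 ± 0.27 (adjusted p = 0.00243). Slc39a14 (ZIP14), an importer of zinc, iron and manganese, read 326, 302 and 221 with BMP4 against 1068, 873 and 873 with no cytokine. It had the smallest adjusted p of any member here, 7.21e-06, for a difference of -1.64 ± 0.14. Its 3 other probe sets, all dim with means of 85.6 or less, moved the same way by -0.38, -0.59 and -0.19.

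Slc27a2, a very-long-chain acyl-CoA synthetase that also takes up fatty acids, read 212, 242 and 79.9 with BMP4 in WT, against 820, 734 and 431 with no cytokine. The groups stayed apart and the difference was -1.82 ± 0.33 (adjusted p = 0.00602). Smaller falls were measured for 2 mitochondrial carriers, Slc25a33 of pyrimidine nucleotides (-0.95 ± 0.18) and Slc25a40 of glutathione (-0.74 ± 0.15). Slc7a7, a light chain that pairs with Slc3a2, fell by 0.92 ± 0.18, and its second probe set fell by 0.53. Slc23a2, a vitamin C transporter, fell by 0.73 ± 0.17. Slc45a4, of a family of proton-coupled sugar transporters, differed by -0.55 ± 0.12 on the probe set used, but its 2 other probe sets, with means of 384 and 201, gave 0.00 and 0.11.

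The 3 members that rose with BMP4 in WT were a mitochondrial carrier, a glutamine transporter and a thiamine transporter. Slc25a14 (UCP5) read 200, 377 and 568 with BMP4, against 141, 148 and 185 with no cytokine, a difference of 1.11 ± 0.19 with no overlap (adjusted p = 0.0034). Slc38a5 (SNAT5) read 66.3, 132 and 144 with BMP4, against 9.0, 43.7 and 120 with no cytokine, a difference of 1.11 ± 0.29 (adjusted p = 0.0445). Its groups overlapped, since untreated cells at 36 h had passed the BMP4 value of 12 h. It was above 100 on 5 of the 23 arrays, its untreated signal at 12 h lay below the array medians, and the difference was 0.64 when 64 was added in place of 16. It thus met the level minimum through arrays in which it was high, and its difference is a description. The call held in 4 of 11 alternatives and was lost, among others, on values as deposited, with median centring and with no filter on dim genes. Slc19a2, which carries thiamine, read 787, 867 and 936 with BMP4 against 455, 468 and 592 with no cytokine, a difference of 0.78 ± 0.18.

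**Figure D1:**
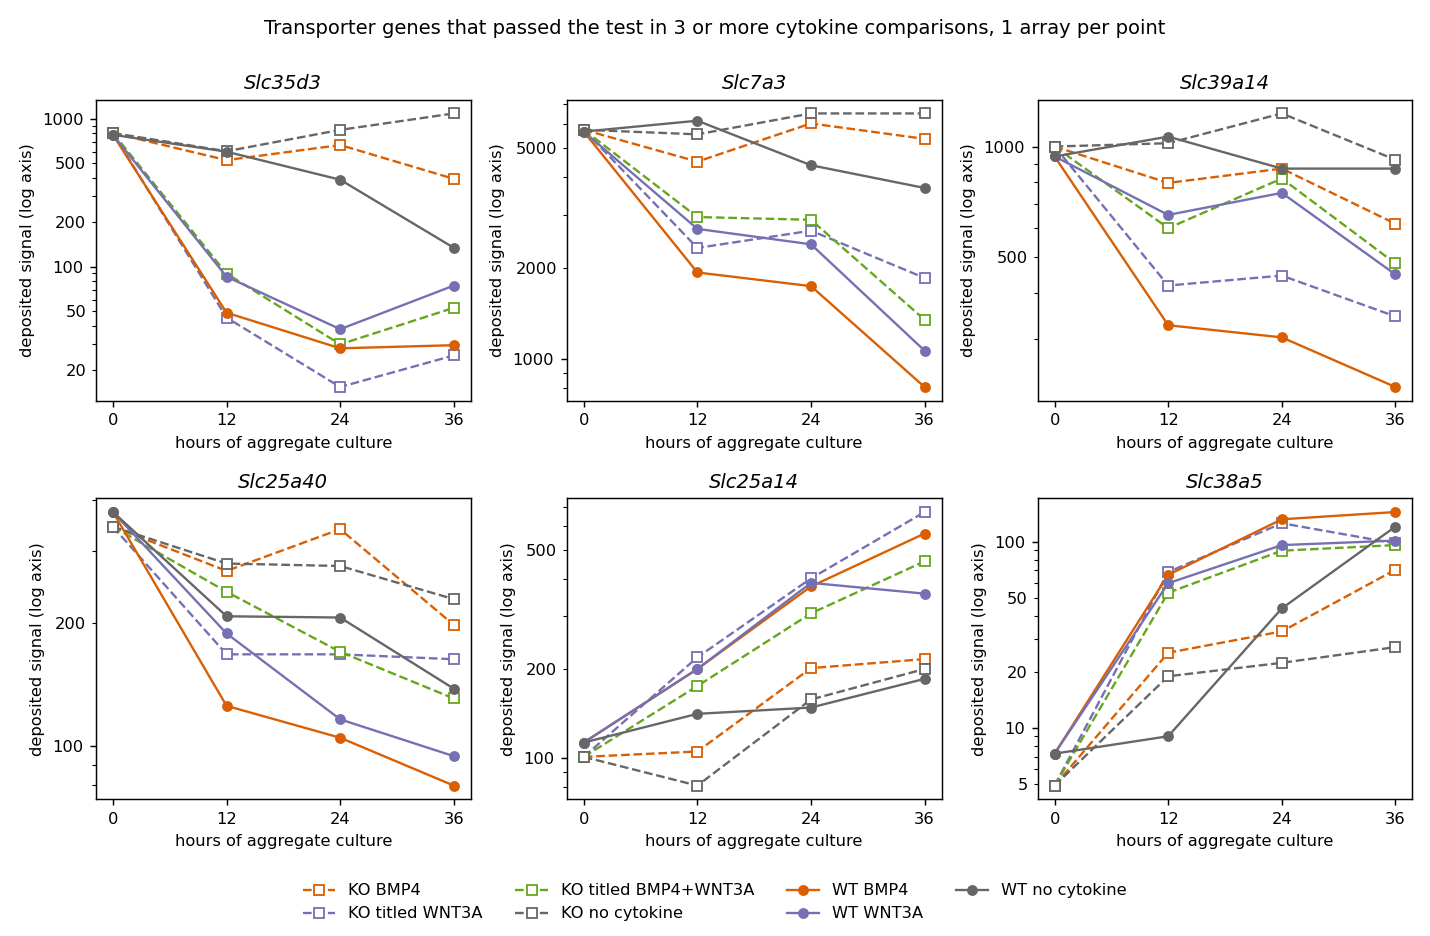
Deposited signal on a log axis against hours of aggregate culture for the 6 members past the threshold in 3 or more of the 5 cytokine comparisons, 1 array per point, KO dashed with open squares and WT solid with filled circles. Slc35d3 sits at 15.3 to 89.9 on every array of WT cells with a cytokine and of both titled KO groups, and at 393 to 1090 on KO arrays with BMP4 or no cytokine.

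The 12 called members are 6.38% of the family, beside 3.47% of all 13258 genes tested. By direction, 9 members fell beside 2.02% of all genes, and 3 rose beside 1.45%. The median difference was -0.03 over members and -0.01 over all genes, and 40 members had an unadjusted p under 0.05 (21.3% beside 17.1% of all genes). All 12 kept their direction at each of the 3 times, which a call over these same times favours, so it adds no support. With the 24 h arrays left out only Slc39a14 passed (1 member), and the count was 5 when 12 h was dropped, 15 when 36 h was, and 9 when the 3 arrays of high Gapdh ratio left the fit. Markers of other cell states moved with these genes. The 5 primitive streak and mesoderm markers summed to 1957 to 11481 with BMP4 in WT against 217 to 3875 with no cytokine, ranges that overlap. The 5 EpiLC markers summed to 12488 to 20514 against 20534 to 27557. In that comparison 1 of the 5 streak markers rose and 2 of the 5 EpiLC markers fell past the threshold. Of the naive stem cell, trophoblast and fibroblast lists 1 marker each passed, and none of the endoderm list. The part of these markers in the results was not tested.

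WNT3A in WT cells lowered Slc35d3, Slc7a3 and Slc39a14 and no other member past the threshold, 3 members beside 0.543% of all genes. Slc35d3 read 85.6, 37.8 and 74.5 with WNT3A, against the untreated values given above, a difference of -2.11 ± 0.38 (adjusted p = 0.0264), or -1.64 with an offset of 64. Slc7a3 read 2702, 2402 and 1068 with WNT3A and differed by -1.29 ± 0.27 (adjusted p = 0.0462). Slc39a14 read 653, 750 and 449 and differed by -0.67 ± 0.14 (adjusted p = 0.0451). For all 3 genes each WNT3A array was below each untreated one. Slc25a14 (0.83 ± 0.19, adjusted p = 0.0593) and the polyamine carrier Slc18b1 (1.18 ± 0.26, adjusted p = 0.0574) missed the threshold. These calls rested on few arrays, with 0 passing when either 12 h or 24 h was dropped, 11 when 36 h was, and 2 when the 3 arrays of high Gapdh ratio left the fit. None passed either when the 6 KO arrays of conflicting labels left the fit. With WNT3A in WT the streak markers summed to 1564 to 2908 against 217 to 3875 with no cytokine, ranges that overlap, and none of them passed. The EpiLC markers summed to 10580 to 21901 against 20534 to 27557, ranges that also overlap, with 1 of 5 lower. The naive stem cell markers summed to 745 to 1124 against 444 to 619, with Esrrb (1.52) and Zfp42 (0.63) higher. For the endoderm markers the sums of 508 to 1822 and 167 to 1317 overlap. Whether they bear on these genes was not tested.

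BMP4 in KO cells gave no call among the members in limma, beside 0.573% of all genes, and 15 members had an unadjusted p under 0.05 (7.98% of members beside 10.7% of all genes). Slc35d3 read 526, 666 and 393 with BMP4 in KO, against 605, 843 and 1090 with no cytokine, a difference of -0.67 ± 0.38 (adjusted p = 0.591). Slc7a3 read 4513, 6039 and 5367 with BMP4 against 5557, 6517 and 6517 with no cytokine, a difference of -0.22 ± 0.27. Slc39a14 read 798, 873 and 617 with BMP4 against 1024, 1235 and 923 with no cytokine, a difference of -0.48 ± 0.14 (adjusted p = 0.165). Slc35d3 and Slc39a14 arrays with BMP4 were lower at each of the 3 times, and Slc7a3 arrays as well. The streak markers summed to 167 to 225 with BMP4 in KO against 154 to 209 with no cytokine. In the trophoblast list 1 marker was higher and in the fibroblast list 1 was lower, and no other marker passed.

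Tested directly, the BMP4 response in KO minus that in WT passed for no member, beside 0% of all genes, with 17 members at an unadjusted p under 0.05 (9.04% beside 5.91% of genes). Slc39a14 came nearest at 1.16 ± 0.20 (adjusted p = 0.0759 in limma). Slc35d3 (2.07 ± 0.54) and Slc7a3 (1.48 ± 0.39) both had an adjusted p of 0.378. The calls made in WT and missed in KO are therefore not shown to differ between the lines. This count changed with the setting, since Slc39a14 passed on values taken as deposited (1.21) and Slc35d3 (3.05) and Slc27a2 (1.74) passed without the 36 h arrays.

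KO and WT cells compared under BMP4 differed at 19 members, 10.1% of the family beside 7.28% of all genes. The 9 that were higher in KO stand beside 4.32% of all genes and the 10 that were lower beside 2.96%. Of the 19, 9 were also called for BMP4 in WT, but both comparisons use the same WT arrays with BMP4. That overlap was not counted over all genes. Slc35d3 was higher in KO by 3.38 ± 0.38 (adjusted p = 0.000109), Slc7a3 by 1.91 ± 0.27, Slc27a2 by 1.59 ± 0.33, Slc39a14 by 1.32 ± 0.14 and Slc25a40 by 1.20 ± 0.15. Slc6a15, a transporter of branched-chain amino acids and proline, read 428, 739 and 580 in KO with BMP4, against 300, 239 and 107 in WT with BMP4, a difference of 1.38 ± 0.37 (adjusted p = 0.0326). Its groups did not overlap, and the gap was widest at 36 h. Lower in KO were Slc38a5 (-1.20 ± 0.29), Slc25a14 (-1.09 ± 0.19), Slc18b1 (-0.93 ± 0.26), the zinc exporter Slc30a2 (-0.75 ± 0.21), the fatty acid transport protein Slc27a4 (-0.69 ± 0.15) and the biotin and pantothenate transporter Slc5a6 (-0.63 ± 0.15). The call of Slc30a2, a dim gene with a mean of 90.3, held in 2 of 11 alternatives. That of Slc18b1 held in 4 of 11, beside 10 of 11 for Slc27a4. Slc38a5 and Slc18b1 met the level minimum through arrays in which they were high, so their differences are a description. Dropping 24 h left 1 member past the threshold, dropping 12 h left 8, and leaving out the 6 arrays of conflicting labels left 11. The streak markers summed to 167 to 225 in KO with BMP4 and 1957 to 11481 in WT with BMP4, and the EpiLC markers to 23800 to 25898 in KO and 12488 to 20514 in WT. In KO 3 streak markers were lower and 2 EpiLC markers higher, and of the naive stem cell list 1 was higher and 2 were lower. The part of these markers was not tested.

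Without a cytokine the lines did not differ at any member past the threshold in limma, beside 0.113% of all genes, although 25 members had an unadjusted p under 0.05 (13.3% beside 12.3%). Slc35d3 was nearly equal at 12 h (605 in KO, 600.5 in WT) and further apart at 36 h (1090 in KO, 134 in WT), with a mean difference of 1.31 ± 0.38 (adjusted p = 0.189). The smallest adjusted p was that of the mitochondrial citrate carrier Slc25a1, at -0.40 ± 0.09 (adjusted p = 0.102).

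In KO cells titled WNT3A, 22 members passed, 11 higher and 11 lower. They are 11.7% of the family beside 9.56% of all genes, with 4.03% of all genes higher and 5.53% lower. Slc35d3 read 45.3, 15.3 and 25.1, against 605, 843 and 1090 in KO with no cytokine. The difference was -4.29 ± 0.38 (adjusted p = 9.45e-06). Signals of 15.3 and 25.1 lie below the array medians, so its size depends on the offset and was -3.28 when 64 was added in place of 16. Slc7a3 read 2336, 2665 and 1859 and fell by 1.47 ± 0.27, while Slc39a14 read 419, 446 and 345 and fell by 1.37 ± 0.14. For both genes the titled arrays lay below all KO arrays with no cytokine.

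Slc25a14 read 218, 402 and 671 on the KO arrays titled WNT3A, against 81.0, 158 and 200 in KO with no cytokine, a difference of 1.37 ± 0.19 (adjusted p = 0.000288). Slc38a5 read 68.6, 125 and 97.7 on the titled arrays against 18.9, 22.3 and 27.1 with no cytokine, a difference of 1.51 ± 0.29. Neither gene's groups overlapped. Other members that rose were Slc18b1 (1.22 ± 0.26), Slc19a2 (1.04 ± 0.18), Slc5a6 (0.92 ± 0.15) and Slc20a1, a sodium-phosphate importer (0.75 ± 0.18). Slc38a5 and Slc18b1 met the level minimum through arrays in which they were high, so their differences are a description. Other members that fell included Slc27a2 (-1.18 ± 0.33), Slc37a1, a glucose-6-phosphate exchanger of the endoplasmic reticulum (-0.82 ± 0.19), Slc25a33 (-0.67 ± 0.18) and Slc45a4 (-0.64 ± 0.12), whose 2 other probe sets gave -0.21 and 0.08. Between this comparison and BMP4 in WT, 10 members were called in both, 10 of 22 here and 10 of 12 there. That overlap was not counted over all genes, so it shows nothing particular to the members. Dropping 24 h left 3 (Slc35d3, Slc39a14 and Slc25a14), dropping 12 h left 9, and leaving out the 3 arrays of high Gapdh ratio gave 15, of which 14 were among the 22. The streak markers summed to 1805 to 4667 on the arrays titled WNT3A against 154 to 209 with no cytokine in KO, with 3 of 5 higher, and the EpiLC markers to 16261 to 20612 against 24923 to 27203, with 3 of 5 lower. The naive stem cell markers summed to 816 to 1233 against 442 to 798, with Esrrb (1.61), Tbx3 (1.15) and Zfp42 (0.74) higher and Nr0b1 lower. In the trophoblast list 1 marker was higher and in the fibroblast list 1 was lower. The part of these markers was not tested.

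In KO cells titled BMP4+WNT3A, 12 members passed, 6.38% beside 6.83% of all genes. The 6 that rose stand beside 3.04% of all genes and the 6 that fell beside 3.79%. Slc35d3 read 89.9, 29.9 and 52.7 and differed by -3.63 ± 0.38 (adjusted p = 0.000115), or -2.92 with an offset of 64. Slc7a3 read 2957, 2896 and 1351 (-1.51 ± 0.27) and Slc39a14 600.5, 820 and 481 (-0.83 ± 0.14). All of these arrays were below the KO arrays with no cytokine. Slc18b1, a vesicular carrier of polyamines, read 103, 159 and 211, against 34.3, 46.5 and 34.8 with no cytokine, a difference of 1.55 ± 0.26. No array of one group overlapped the other. The titled arrays were all above 100 and the untreated ones all below it. Slc18b1 thus met the level minimum through arrays in which it was high, and its difference is a description. The nucleoside transporter Slc29a1 rose by 0.94 ± 0.23, Slc31a2, a copper transporter, by 0.71 ± 0.17, and Slc5a6 by 0.64 ± 0.15. The second probe set of Slc31a2, with a mean of 164.7, gave 0.187, and the Slc31a2 call held in 6 of 10 alternatives. Slc37a1 fell by 0.67 ± 0.19 and Slc9b1, a sodium-hydrogen exchanger, differed by -0.54 ± 0.15, a call lost with an offset of 64 (-0.32). None of the 12 passed when 24 h was dropped, 8 members passed when 12 h was, and 8 when the 3 arrays of high Gapdh ratio left the fit. The streak markers summed to 1509 to 2734 here, with 2 of 5 higher, and the EpiLC markers to 12309 to 22565, with 2 of 5 lower. The naive stem cell markers summed to 825 to 1167, with Esrrb (1.83) and Zfp42 (0.53) higher, and the 5 endoderm markers to 520 to 2684 against 165 to 213 with no cytokine, with 1 higher. In the fibroblast list 1 marker was lower. The part of these markers was not tested.

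Both titled groups share their untreated KO arrays, and the same 9 members passed in both, an overlap that was not counted over all genes. Set directly against each other, BMP4+WNT3A minus WNT3A by title, no member passed in limma, beside 0.339% of all genes, with 15 members at an unadjusted p under 0.05 (7.98% beside 7.38%). Slc39a14 came nearest at 0.54 ± 0.14 (adjusted p = 0.198). By the array names the sign of that difference would be turned.

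**Figure D2:**
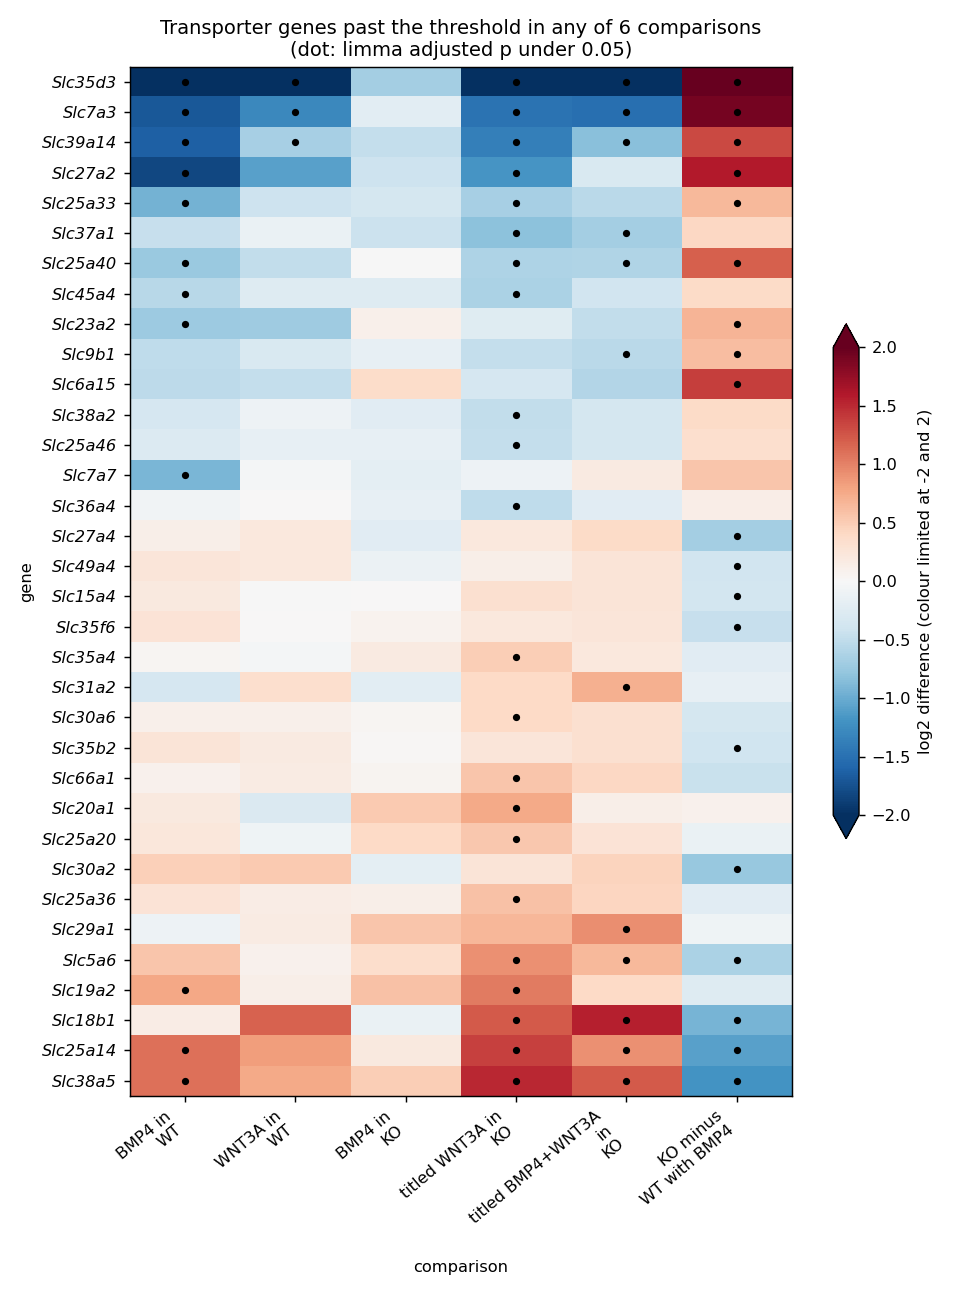
Log2 differences of the 34 members past the threshold in any of the 5 cytokine comparisons or in KO minus WT with BMP4, with genes down the page, comparisons across it, red for higher and blue for lower, and a dot where limma's adjusted p was under 0.05. Slc35d3, Slc7a3 and Slc39a14 carry a dot in all comparisons but BMP4 in KO.

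Across the 5 cytokine comparisons 27 members passed at least once, 6 passed in 3 or more and 3 in 4, these being Slc35d3, Slc7a3 and Slc39a14. The comparisons within a line share untreated arrays, so these counts are not independent of each other. A total of 86 members passed in none of the 10 comparisons. None of these counts was made over all genes, so they describe the members alone.

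Far more members passed between times than in any cytokine comparison, but these counts are at unlike power. The time comparison sets 7 arrays against 7, and each cytokine comparison sets 3 against 3. For Slc35d3 the SE was 0.25 in the time comparison and 0.38 in each cytokine comparison. Between 12 h and 36 h, 84 members changed, 44.7% beside 38.8% of all genes, with 36 higher at 36 h beside 17.9% of all genes and 48 lower beside 20.8%. For 68 of them it was the only one of the 10 comparisons in which they passed, and 46 of the 84 moved the same way in all 7 conditions. Neither of these 2 counts was made over all genes. The share past the threshold was close to that of genes at large, and the median difference was -0.03 over members beside -0.02 over all genes. With time 4 of the 5 EpiLC markers and 2 naive stem cell markers fell, 2 of the 5 streak markers and 1 endoderm marker rose, 1 trophoblast marker rose and 1 fell, and 1 fibroblast marker fell. Their part was not tested.

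Metal ion carriers showed the largest rise with time. Slc39a8 (ZIP8), an importer of zinc and manganese, read 29.0 in KO and 22.8 in WT at 0 h. At 12 h it read 44.3 to 78.8 over the 7 conditions, and at 36 h it read 286 to 1342 in all but WT with BMP4, which read 155. The rise of 2.52 ± 0.21 was seen in every condition. Slc39a8 was above 100 on 14 arrays, none of them at 0 h or 12 h. It thus passed the level minimum through the times at which it was high, and the rise is a description. At 36 h the 2 highest arrays were KO titled BMP4+WNT3A (1342) and WT with WNT3A (815). In this class 7 members rose, among them Slc31a2 (0.66 ± 0.11, with -0.03 on its second probe set), the zinc carriers Slc30a4 (0.67 ± 0.17) and Slc39a10 (0.42 ± 0.07), and 2 fell, Slc39a4 (-0.83 ± 0.16) and Slc39a14 (-0.52 ± 0.09). Of 12 other genes of metal handling (metallothioneins, ferritin, the transferrin receptor and their regulators), 11 were tested, 2 rose and 3 fell with time, and none passed in a cytokine comparison.

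Of the 13 sugar carriers 1 rose and 5 fell, the rise being that of Slc5a3, the sodium-coupled transporter of myo-inositol. Slc5a3 read 32.7 to 97.7 over the 7 conditions at 12 h. At 36 h it read 699 in KO titled BMP4+WNT3A and 553 in WT with WNT3A, and 72.5 to 130 in the other 5 conditions. The mean rise was 1.21 ± 0.30, and those 2 conditions had the largest rises. Slc5a3 was above 100 on 10 arrays, none of them at 12 h. It thus passed the level minimum through other times, and the rise is a description. A further inositol transporter, Slc5a11, fell by 0.67 ± 0.13.

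Among amino acid carriers 7 rose and 8 fell. Slc7a6 (0.81 ± 0.09), Slc38a5 (0.87 ± 0.19), the taurine transporter Slc6a6 (0.66 ± 0.13) and Slc1a4, a carrier of alanine, serine and cysteine (0.63 ± 0.13), rose. Slc38a5 met the level minimum through arrays in which it was high, so its rise is a description. Slc6a15 (-0.92 ± 0.24), Slc7a3 (-0.72 ± 0.18) and Slc7a7 (-0.50 ± 0.12) fell. For the arginine transporter Slc7a1 the probe sets disagreed, at -0.46 ± 0.06 on the one used and 0.33 on another with a mean of 367. At 36 h Slc6a15 read 115 in KO titled BMP4+WNT3A, 107 in WT with BMP4 and 78.2 in WT with WNT3A, and 278 to 580 elsewhere. Of 16 genes of the amino acid response (targets and partners of ATF4), 15 were tested, and 2 rose and 4 fell with time. In BMP4 in WT none of them rose and 2 fell, in BMP4 in KO 1 fell, in titled WNT3A in KO 1 rose and 1 fell, and in titled BMP4+WNT3A in KO 2 rose and 1 fell.

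Mitochondrial carriers held 6 rises and 12 falls. Slc25a14 (0.91 ± 0.12) and Slc25a24, which exchanges ATP-magnesium for phosphate (0.86 ± 0.10), were the largest rises, and Slc25a33 (-0.92 ± 0.12) and Slc25a40 (-0.64 ± 0.10) the largest falls. Slc25a24 read 163 in KO and 139 in WT at 0 h and 572 to 739 over all conditions at 36 h. Of the 20 SLC35 carriers 5 rose and 1 fell, with a median difference of -0.04 over the class, including the CMP-sialic acid transporter Slc35a1 (0.64 ± 0.08) and, as the fall, Slc35f2 (-0.81 ± 0.21). Of 12 genes that make nucleotide sugars and glycans, 11 were tested, 4 rose and 2 fell with time, and none passed in a cytokine comparison.

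Ion carriers held 5 rises and 7 falls. Slc9b1 read 193 in KO and 174 in WT at 0 h, 47.2 to 116 at 12 h and 15.5 to 28.1 at 36 h. It was above 100 on 4 arrays, all at 0 h or 12 h, so it passed the level minimum through the times at which it was high. Its difference of -1.35 ± 0.10 is therefore a description, with 36 h signals below the array medians and a size of -0.76 when 64 was added in place of 16. No 36 h array reached the lowest 12 h array. The sulphate transporter Slc26a2 (0.84 ± 0.16) and the sodium-bicarbonate cotransporter Slc4a4 (0.74 ± 0.12) rose. Of 12 genes of sodium, proton and calcium pumps 9 were tested. With time 4 rose, among them the calcium pump gene Atp2b1, and 1 fell. In BMP4 in WT 1 of these genes was lower, as was 1 in BMP4 in KO and 1 in KO against WT with BMP4. None of the pump genes passed in another cytokine comparison. Vitamin and heme carriers held 1 rise and 4 falls, among them Slc23a2 (-0.65 ± 0.11) and its relative Slc23a1 (-0.43 ± 0.07).

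**Figure D3:**
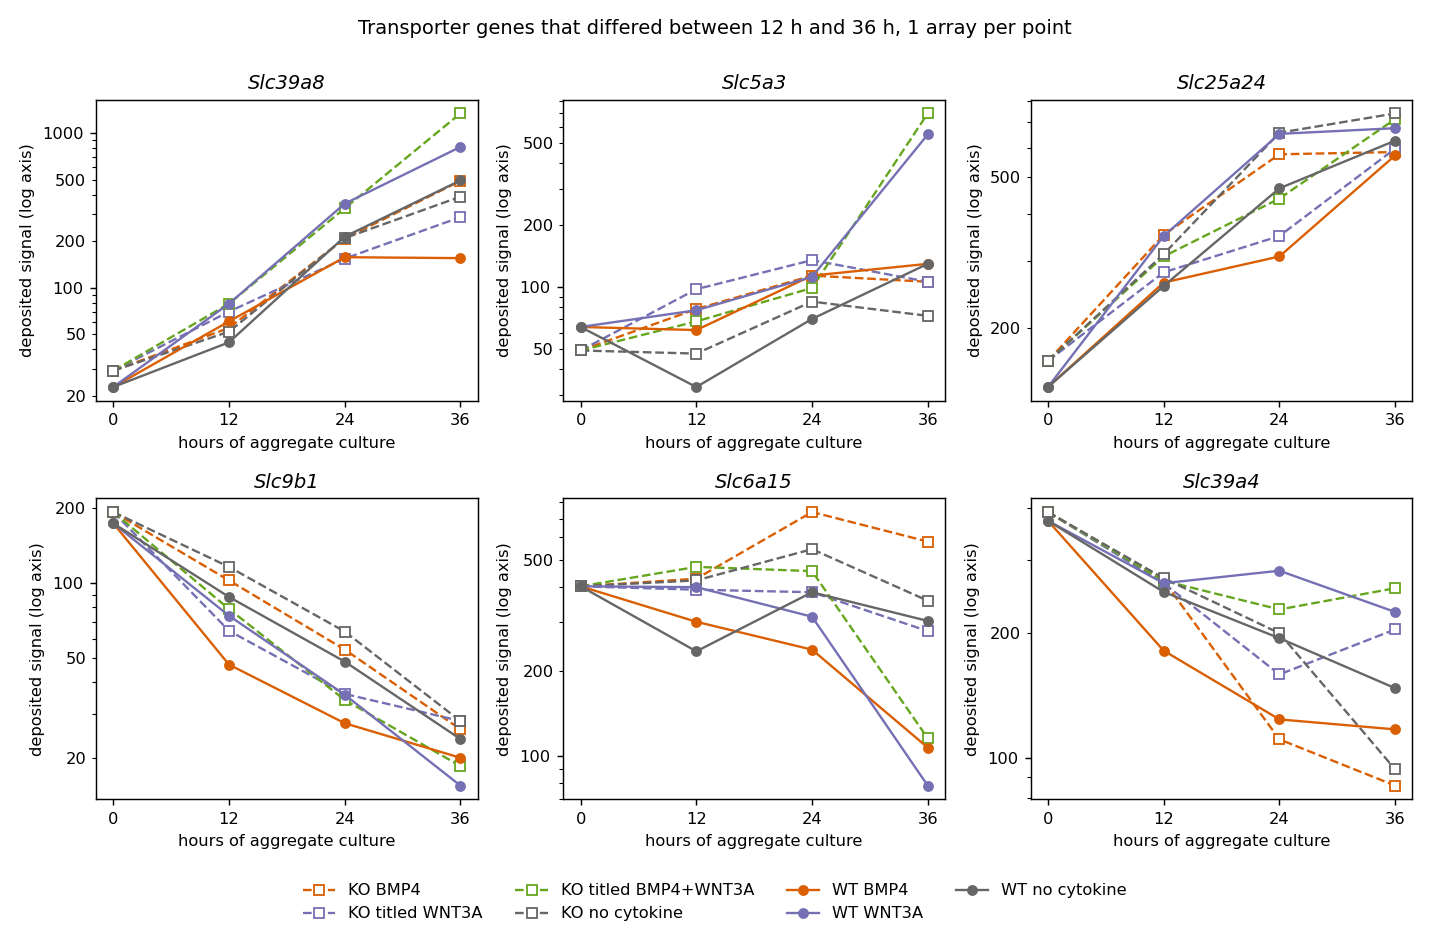
Deposited signal on a log axis against hours of aggregate culture for 3 members that rose and 3 that fell between 12 h and 36 h, 1 array per point, KO dashed with open squares and WT solid with filled circles. Slc39a8 climbs in all conditions, whereas Slc5a3 is at 699 and 553 on 2 arrays at 36 h and at 135 or less on every other array.

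From 0 h to 12 h with no cytokine there is 1 array at each point in each line, so no test was made. No member moved past 2-fold the same way in both lines, beside 0.701% of all genes (40 up and 53 down). The amino acid exchanger Slc7a5 (LAT1), partner of Slc3a2, read 904 in KO and 1951 in WT at 12 h, against 3281 in KO and 3397 in WT at 0 h, differences of -1.80 in KO and -0.79 in WT. Slc1a4 differed by -0.66 in KO and -0.998 in WT, and Slc9b1 by -0.70 in KO and -0.91 in WT. In the other direction, Slc25a24 differed by 0.89 in KO and 0.84 in WT, and Slc4a4 by 0.96 in KO and 0.66 in WT.

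**Figure D4:**
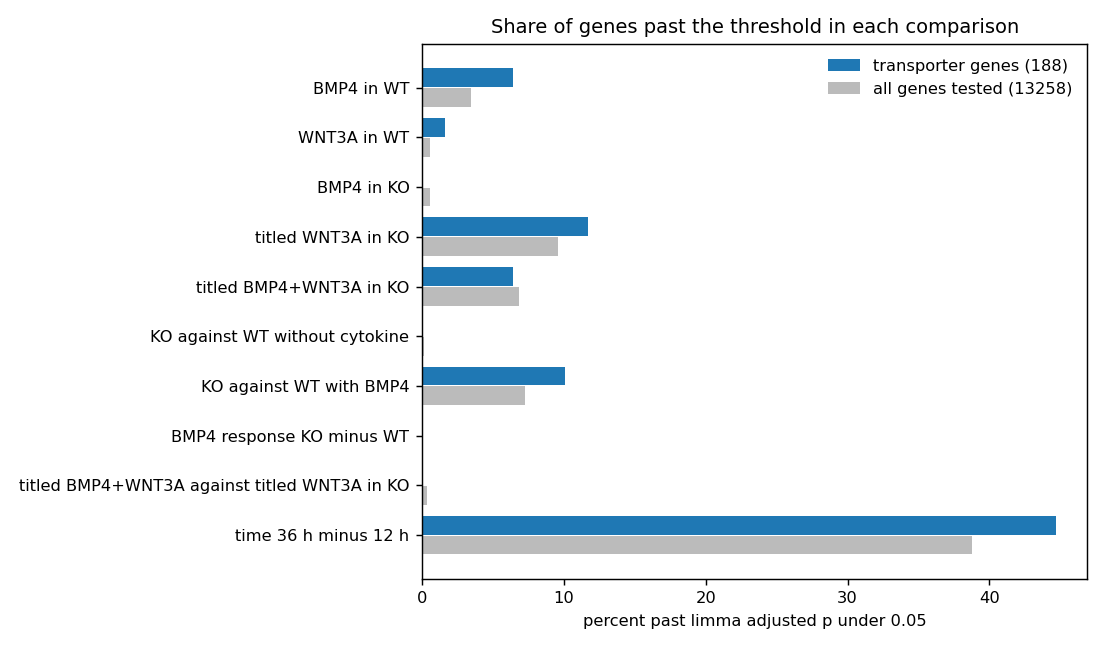
Percent of the 188 members (blue) and of the 13258 genes tested (grey) past limma's adjusted p of 0.05 in each of the 10 comparisons. The members' share is 44.7% for time and at most 11.7% elsewhere, and it lies within 6 percentage points of the share of all genes in each comparison.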

How the data were processed

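RNA of 23 samples was measured on 1-colour Affymetrix arrays of the mouse genome. The labels' protocols describe amplified cDNA from total RNA, copied into biotinylated cRNA. The authors deposited 1 intensity (signal) per probe set and array on a linear scale, with a floor of 1 at which 2.93% of values lie; how they were summarised and scaled is not stated in the labels or file headers. The platform annotation gives 1 gene for 34958 of the 45101 probe sets, more than 1 for 932 and none for 9211, and RefSeq matched 34754 of the first kind; 6 probe sets that name an Slc gene and another were not used. No column lacked a sample.

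Here 16 was added to each intensity, log2 was taken and the arrays were quantile normalized. Genes whose signal was above the median of the array on 3 or more arrays were tested (13258). The members' minimum of 100 was stricter, so the shares given for all genes include dimmer genes. The fit used limma 3.58.1 in R 4.3.3 with 7 conditions and the 3 times as a block over the 21 arrays of 12 to 36 h, with a trended prior variance and Benjamini-Hochberg adjustment over all genes in each of 10 comparisons at 0.05. It was tested on simulated data. Tables and figures used Python 3.11.15, pandas 2.3.3 and matplotlib 3.10.9. Because no group has replicate cultures, p-values rest on the spread left after condition and time are taken out, and not on spread between cultures. In the time comparison the 7 conditions stand in for replicates. Precision is limited by how few arrays there are.

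The members, role classes and gene lists were chosen with earlier results of these data known. Genes are named where they were among the 6 largest rises or falls of a comparison with the same direction at all 3 times, were called in 3 or more cytokine comparisons, led or ranged most in a class, lay next to the level minimum, or moved most to 12 h; Slc25a1, Slc7a1, Slc6a6, Slc35a1, Slc35f2, Slc26a2, Slc23a1, Slc30a4 and the marker genes of other lists were named after their values were seen. A set of 11 alternatives covered normalization, offset, filter, probe set choice, prior variance and arrays left out. The time block matches arrays collected at the same time, and the labels carry no replicate numbers that could give another pairing.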

Additional observations from a re-analysis of the deposited data

Results flagged for a closer look

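For 2 of the 188 members (1.06%, beside 2.35% of all genes tested) the normalized signal with BMP4 lay on opposite sides of the untreated signal in the lines at each of the 3 times, although neither gene passed for BMP4 in either line. Slc19a3, a thiamine transporter, was lower with BMP4 in KO (74.5, 67.2 and 66.3 with BMP4 against 80.4, 91.1 and 75.1 with no cytokine) and higher with BMP4 in WT (84.4, 83.9 and 97.7 with BMP4 against 71.5, 70.5 and 74.5 with no cytokine). The response in KO minus that in WT was -0.50 ± 0.17, which did not pass in limma (adjusted p = 0.631). Slc27a4 was lower with BMP4 in KO (307, 265 and 223 with BMP4 against 309, 331 and 274 with no cytokine) and higher with BMP4 in WT (425, 350 and 491 with BMP4 against 362, 347 and 461 with no cytokine). Its difference was -0.34 ± 0.21 (adjusted p = 0.893 in limma). Gaps were as small as 307 against 309 in KO at 12 h and 350 against 347 in WT at 24 h. Neither gene is thus shown to differ between the lines in its BMP4 response. Slc27a4 was, however, called lower in KO than in WT when both had BMP4, as given above. Slc19a3 stands just above the level minimum.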

How the results depend on the processing

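Counts of members called varied with the time left out, and the cause was not tested. The count for BMP4 in WT (12) ran between 1 and 15, for WNT3A in WT (3) between 0 and 11, for titled WNT3A in KO (22) between 3 and 24, for titled BMP4+WNT3A in KO (12) between 0 and 14, for KO against WT with BMP4 (19) between 1 and 23, and for the BMP4 response in KO minus WT (0) between 0 and 2. Without the 6 arrays of conflicting labels, WNT3A in WT gave 0 and KO against WT with BMP4 gave 11. WNT3A in WT gave 1 with no filter on dim genes and 1 with the mean of all probe sets, and the BMP4 response in KO minus WT gave 1 on values as deposited. The counts for BMP4 in KO, KO against WT without cytokine and the titled groups against each other were 0 in limma under all alternatives run. The time count (84) was 56 to 84 for the same members, 69 of 146 members at a level minimum of 200 and 95 of 243 with no level minimum, and leaving out 12 h or 36 h leaves no such comparison. Of 889 values of named members under alternatives, 695 kept direction and side of the threshold, 193 lost significance and 1 reversed, the time difference of Slc7a6os, which was 0.11 with the mean of all probe sets. In all, 28 of 89 named results held under all alternatives run, among them Slc39a14 for BMP4 in WT, for KO against WT with BMP4 and for titled WNT3A in KO, and Slc35d3 and Slc25a14 for titled WNT3A in KO. Signals near the floor limit what can be said of dim members such as Slc38a5 at 0 h.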
